A study of Mus musculus with 16 samples.

Results

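The genes described here are the integrins and laminins, the receptors by which cells hold their matrix and the main chains of the basement membranes that epithelia rest on. They were chosen by name alone: integrin alpha and beta symbols, with the integrin-binding proteins of the ITGB1BP and ITGB3BP kind left out, and laminin alpha, beta and gamma symbols. The deposited table held 18132 genes, of which 34 matched and 33 are described, 25 of them integrins (15 alpha chains, 9 beta chains and the integrin-like Itgbl1) and 8 laminins. Itga8, Itga10, Itgal, Lama3 and Lama5 were not analysed here.

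RNA of whole kidneys was hybridized to Illumina BeadChips, arrays of beads on which the brightness of a gene follows the amount of its transcript. In UUO (unilateral ureteral obstruction) the outflow of 1 kidney is blocked, which damages its tubules, and the kidneys were taken 24 h later. WT kidneys came from C57/BL6 mice and the IL-33-deficient (KO) kidneys from an Il33-deficient strain that had been bred onto C57BL/6J BomTac, with an age of 8 weeks per the study's methods unless stated otherwise. There were 7 WT and 5 KO kidneys after UUO, in 2 sets of mice (3 WT and 2 KO in set 1, 4 WT and 3 KO in set 2), and 2 WT and 2 KO control kidneys, labelled only as control and with no set. Each array is counted here as 1 kidney and named by the number in its label. The labels do not say that every array is a separate animal, so the p-values measure the spread between these arrays.

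An integrin is a pair of an alpha and a beta chain that spans the membrane. Its outer part binds a ligand such as laminin, collagen, fibronectin or fibrinogen, and its inner part is tied to the actin or keratin skeleton through adaptor proteins. A laminin is a trimer of an alpha, a beta and a gamma chain, and laminin trimers, type IV collagen, nidogen and perlecan build the basement membranes of tubules, glomeruli and vessels. Integrins that contain Itgav also bind the latent form of TGF-beta, through which they are known in kidney fibrosis.

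The arrays differed little in overall brightness, with median intensities from 132.3 to 133.4. The deleted gene followed its label: Il33 had a log2 intensity of 6.88 and 6.85 in KO control kidneys and from 6.80 to 7.02 in KO kidneys after UUO, against 7.62 and 8.02 in WT controls and from 8.39 to 9.57 in WT kidneys after UUO. Kidney markers were measured at levels from bright to dim: the mean log2 intensity in WT controls was 14.25 for Slc34a1, the phosphate transporter of the proximal tubule, and 13.82 for Umod of the thick limb, but 7.47 for Lrp2 of the proximal tubule and 6.81 for Calb1 of the distal tubule, the last below the median of the table, 7.05. In Havcr1, the tubular injury gene, WT replicate 3820 stood far below the rest after UUO, and replicate 3818 was next, just below the others. Havcr1 reached 10.42 in WT replicate 3820 and 12.84 in WT replicate 3818, against 13.12 to 13.95 in the other WT kidneys. Of the members called higher in WT kidneys, 3818 was the lowest UUO kidney for 4 and 3820 for 1. The counts of called members are given with and without both, and the differences without both for members called in WT kidneys or described between the genotypes.

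A few integrin chains and the laminin chain Lamc1 were higher after UUO than in controls in both genotypes, led by Itgav. The labels do not say whether the controls were sham operated, so obstruction and surgery cannot be told apart. A gene is called where its adjusted p from limma, over all 18132 genes, was under 0.05. In WT kidneys 9 of 33 members (27.3%) were called, 6 higher and 3 lower, beside 15.2% of all genes (6.97% higher and 8.22% lower). In KO kidneys 9 members were again called, 6 higher and 3 lower, beside 21.8% of all genes (10.6% higher and 11.2% lower). Itgav, Itgb1, Itgb4 and Lamc1 rose and Lamc3 fell in both genotypes. These are 5 of 33 members called in both, beside 2349 of all 18132 genes. Itga5 and Itga6 rose and Lama2 and Lamb2 fell by the test in WT kidneys, Itga1 and Itga3 rose and Itga2b and Itgae fell by the test in KO kidneys, and 20 members were called in neither. The median log2 difference over the 33 members was 0.02 in WT and 0.025 in KO kidneys and that over all genes 0.00. In whole kidneys, fewer cells of a type and less RNA per cell cannot be told apart.

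Some markers of the tubules and a marker of pericytes, Pdgfrb, moved in the same comparison. Of 8 measured tubule markers 0 were called higher and 3 lower in WT kidneys and 0 higher and 4 lower in KO kidneys. Slc12a1, the salt transporter of the thick limb, fell in both genotypes, with differences of -3.12 in WT and -3.13 in KO kidneys, as did Aqp2, the water channel of the collecting duct, with -1.08 and -1.42. Slc34a1 fell by 1.52 in KO kidneys, with a difference of -0.58 in WT kidneys that was not called (adjusted p = 0.272 from limma). The summed intensity of the 3 proximal tubule markers was 20050 to 21553 in WT controls, 8551 to 21221 in WT kidneys after UUO, 20481 to 21856 in KO controls and 5281 to 11710 in KO kidneys after UUO. That of the 2 thick limb markers was 17362 to 19915, 6895 to 17783, 14694 to 18303 and 8696 to 12196 in the same order, and that of the 3 distal markers 2365 to 2390, 1241 to 1932, 2240 to 2308 and 1368 to 1734. Of 4 fibroblast and pericyte markers Pdgfrb rose, by 0.40 in WT and 0.69 in KO kidneys, and the others were called in neither. Pdgfra differed by -0.24 and -0.15, Dcn by -0.15 and -0.06 and Lum by 0.012 and 0.003. The summed intensity of the 4 was 1944 to 1988, 1657 to 2229, 2030 to 2080 and 1800 to 2534 in the same order. The part of these cells in the members' values was not tested.

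**Figure D1:**
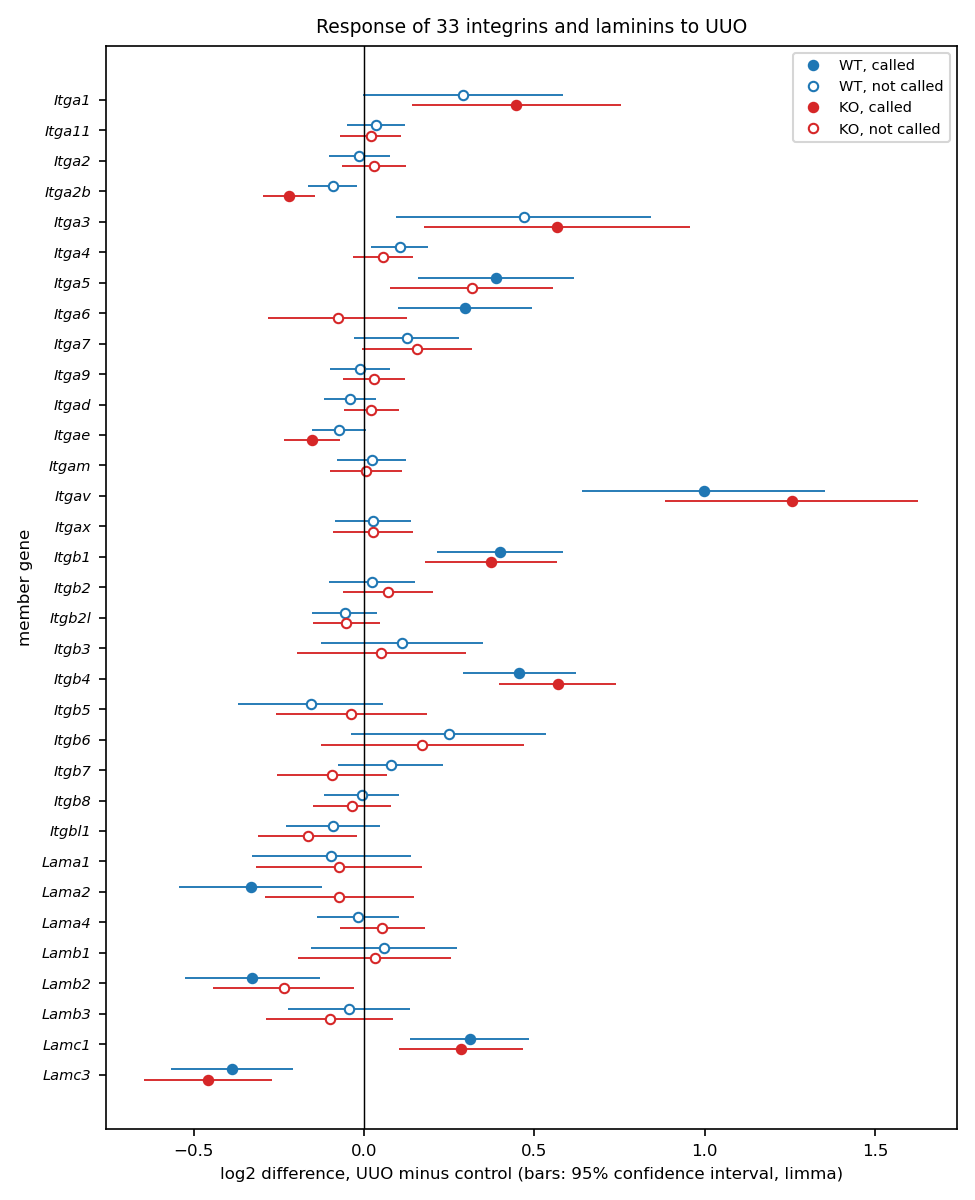
Log2 difference between UUO and control kidneys for each of the 33 members, WT in blue and KO in red; filled points were called at an adjusted p under 0.05 and bars are 95% confidence intervals from limma. Itgav stands farthest to the right in both genotypes, at 1.00 and 1.26, and Lamc3 farthest to the left, at -0.39 and -0.46.

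These counts leaned on the control arrays, of which there were 2 a genotype. The WT count was 3 without control replicate 3811 (Itgav, Itgb4 and Lamb2), 2 without 3812 (Itgav and Itgb4), 4 when the WT groups were fitted alone (Itgav, Itgb1, Itgb4 and Lamc3), 0 with the UUO kidneys of set 1 alone and 11 with those of set 2 alone, and the KO count was 4 without control replicate 3813 (Itga2b, Itgav, Itgb4 and Lamc3), 4 without 3814 (Itga2b, Itgav, Itgb1 and Itgb4), 4 with set 1 alone and 10 with set 2 alone. Of the 4 members called in KO kidneys with set 1 alone, Itgav, Itgb4 and Lamc3 were among the 9. The share of all genes called is not given beside these counts or the next. They therefore do not show whether calls were lost or gained among the members alone. Without WT replicates 3818 and 3820 the WT count was 11, the same 9 members with Itga3 and Itgb6 added, and the KO count 10, with Itga5 added. The WT differences of the 9 were then 1.06 for Itgav, 0.52 for Itgb4, 0.46 for Itgb1, 0.45 for Itga5, 0.35 for Lamc1, 0.30 for Itga6, -0.35 for Lamb2, -0.40 for Lama2 and -0.44 for Lamc3, with adjusted p from 2.37e-05 (Itgb4) to 0.0248 (Itga6) in limma.

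Promoter sequence is shown for Itgav, Itgb1 and Itga5, which were called higher in WT kidneys, and for Lamb2, which was called lower. The window of Lama2, also called lower there, is not shown. RefSeq promoters (GRCm38.p6) matched 22 of the 33 members, in 25 windows, and 8 of the 13 called members. Each sequence is the 250 bases before the transcription start, 5′ to 3′ on the strand of the gene. Capitals mark the GC box GGGCGG, bound by Sp1, and the TEAD site GGAATG, on either strand (CCGCCC is the GC box on the opposite strand).
Itgav, chr2:83724147-83724396, plus strand: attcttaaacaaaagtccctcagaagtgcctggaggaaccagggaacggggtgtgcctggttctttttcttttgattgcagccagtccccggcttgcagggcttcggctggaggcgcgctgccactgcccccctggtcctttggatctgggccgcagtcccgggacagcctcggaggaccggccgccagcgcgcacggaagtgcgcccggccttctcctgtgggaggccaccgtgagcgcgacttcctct
Itgb1, chr8:128685404-128685653, plus strand: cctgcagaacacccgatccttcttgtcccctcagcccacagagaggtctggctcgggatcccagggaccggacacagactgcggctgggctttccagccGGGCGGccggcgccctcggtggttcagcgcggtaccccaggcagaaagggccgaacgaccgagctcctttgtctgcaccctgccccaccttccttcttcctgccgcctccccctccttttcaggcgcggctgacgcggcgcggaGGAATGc
Itga5, chr15:103366792-103367041, minus strand: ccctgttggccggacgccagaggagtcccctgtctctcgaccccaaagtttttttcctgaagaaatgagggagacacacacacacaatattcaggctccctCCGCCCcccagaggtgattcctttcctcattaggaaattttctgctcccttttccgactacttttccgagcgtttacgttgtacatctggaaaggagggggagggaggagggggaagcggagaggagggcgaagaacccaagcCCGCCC
Lamb2, chr9:108479612-108479861, plus strand: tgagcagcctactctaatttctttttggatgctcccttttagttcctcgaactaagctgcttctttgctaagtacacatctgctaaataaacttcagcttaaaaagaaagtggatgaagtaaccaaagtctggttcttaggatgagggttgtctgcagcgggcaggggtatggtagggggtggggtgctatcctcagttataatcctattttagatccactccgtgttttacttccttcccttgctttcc
Itgb1 held a GC box whose first base was at -151 and a TEAD site at -7, Itga5 GC boxes at -149 and -6, and the windows of Itgav and Lamb2 neither. No marked sites overlap. A GC box was in 9 of the 25 member windows and in 32.7% of all 32851 promoters of that length, a TEAD site in 2 of 25 and in 12.6%. The AP-1 site TGANTCA, searched on both strands too, was in 1 of 25, that of Itgax, and in 6.75% of all. These are matches of letters.

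Itgav, the alpha chain that pairs with Itgb1, Itgb3, Itgb5, Itgb6 or Itgb8 and binds vitronectin, osteopontin and latent TGF-beta, changed most. Its log2 intensity was 7.89 and 7.96 in WT controls, and from 8.56 to 9.20 with a median of 8.98 in WT kidneys after UUO. It was 7.57 and 7.82 in KO controls and 9.30, 9.07, 8.72, 8.82 and 8.84 in KO kidneys after UUO. Every obstructed kidney was above every control, WT replicate 3818 being the lowest. The rise was 1.00 on the log2 scale in WT kidneys (2.00-fold, SE 0.17, adjusted p = 0.00131 from limma) and 1.26 in KO kidneys (2.39-fold, SE 0.17, adjusted p = 0.000143 from limma). By set, the WT rise was 0.98 in set 1 and 1.01 in set 2, although with set 1 alone the WT adjusted p was 0.0575 from limma. The KO rise was larger in set 1, at 1.49, than in set 2, at 1.10.

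The beta partners of Itgav did not move as one. Itgb1, the common beta chain of collagen, fibronectin and laminin receptors, was at 7.74 and 7.81 in WT controls and from 7.98 to 8.35 with a median of 8.14 after UUO. Among KO kidneys it was at 7.76 and 7.96 in controls and at 8.22, 8.22, 8.25, 8.32 and 8.17 after UUO, so in neither genotype did the groups overlap. Itgb1 rose by 0.40 (SE 0.09, adjusted p = 0.00605) in WT and 0.37 (SE 0.09, adjusted p = 0.00724) in KO kidneys, both from limma. That call depended on single controls: the adjusted p was 0.0922 and 0.0539 in WT kidneys without control 3811 or 3812, and 0.154 in KO kidneys without 3813. Itgb3, Itgb5, Itgb6 and Itgb8 were not called in either response. Itgb6, the epithelial chain that with Itgav activates TGF-beta, was at 10.79 and 10.55 in WT controls and from 10.56 to 11.19 (median 10.91) after UUO, overlapping, a difference of 0.25 (SE 0.13, adjusted p = 0.275). In KO kidneys Itgb6 was at 10.86 and 10.96 in controls and from 10.95 to 11.30 after UUO, a difference of 0.17 (adjusted p = 0.483).

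The laminin receptors of epithelia are built from Itga3 and Itga6 with Itgb1, and from Itga6 with Itgb4, the pair that anchors keratin at hemidesmosomes. Itgb4 was at 7.33 and 7.37 in WT controls and from 7.65 to 7.95 with a median of 7.84 after UUO. It was at 7.35 and 7.31 in KO controls and at 7.99, 8.0, 7.91, 7.83 and 7.78 after UUO. No obstructed kidney reached down to a control in either genotype. Itgb4 rose by 0.46 in WT (SE 0.08, adjusted p = 0.00141 from limma) and by 0.57 in KO kidneys (SE 0.08, adjusted p = 0.000166 from limma), and it stayed called in both whichever array was left out. With the UUO kidneys of set 1 alone its WT adjusted p was 0.0911.

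Itga6, its partner, was at 7.54 and 7.36 in WT controls and from 7.46 to 7.89 with a median of 7.82 after UUO. These groups overlapped through WT replicate 3819, the lowest. In KO kidneys it was at 7.67 and 7.67 in controls and at 7.53, 7.55, 7.65, 7.63 and 7.59 after UUO, all below the controls. The difference was 0.30 in WT (SE 0.09, adjusted p = 0.0405) and -0.08 in KO kidneys (SE 0.10, adjusted p = 0.68), both from limma. The WT call was the least steady of all and was lost without 12 of the 16 arrays, one at a time, with an adjusted p of 0.409 without control 3812, 0.0795 without control 3811 and from 0.0501 to 0.0674 without any of the other 10. Itga3, the other laminin-binding alpha chain and one that podocytes also carry, was at 8.53 and 8.22 in WT controls and from 8.40 to 9.17 (median 8.87) after UUO, with WT replicates 3818 and 3820 in the range of the controls. In KO kidneys Itga3 was at 8.38 and 8.32 in controls and at 9.05, 8.90, 8.87, 9.0 and 8.76 after UUO, with no overlap. The differences were 0.47 in WT (SE 0.18, adjusted p = 0.0919) and 0.57 in KO kidneys (1.48-fold, SE 0.18, adjusted p = 0.0373), the latter with an adjusted p of 0.149 and 0.19 without control 3813 or 3814 and of 0.0542 to 0.0687 without KO replicate 3821, 3822, 3897 or 3898.

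Itga1 and Itga5 are the chains that with Itgb1 bind type IV collagen and fibronectin. Itga1 was at 7.93 and 7.91 in WT controls and from 8.02 to 8.61 (median 8.15) after UUO. Its KO values were 7.82 and 8.07 in controls and 8.37, 8.45, 8.60, 8.09 and 8.45 after UUO. Obstructed kidneys lay above controls in both genotypes, by a narrow margin in KO replicate 3898, and the difference was 0.29 in WT (SE 0.14, adjusted p = 0.2) and 0.45 in KO kidneys (SE 0.14, adjusted p = 0.0367), with limma. The KO adjusted p for Itga1 was 0.334 and 0.0602 without control 3813 or 3814 and from 0.0522 to 0.0741 without KO replicate 3821, 3822, 3897 or 3899. Itga5 was at 6.99 and 7.07 in WT controls and from 7.22 to 7.65 (median 7.32) after UUO. In KO kidneys it was at 7.06 and 7.01 in controls and at 7.29, 7.40, 7.44, 7.26 and 7.35 after UUO. Again no groups overlapped, and the difference was 0.39 in WT (SE 0.11, adjusted p = 0.0239) and 0.32 in KO kidneys (SE 0.11, adjusted p = 0.0575). The WT call of Itga5 was lost without control 3811 (adjusted p = 0.206) or 3812 (adjusted p = 0.119).

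**Figure D2:**
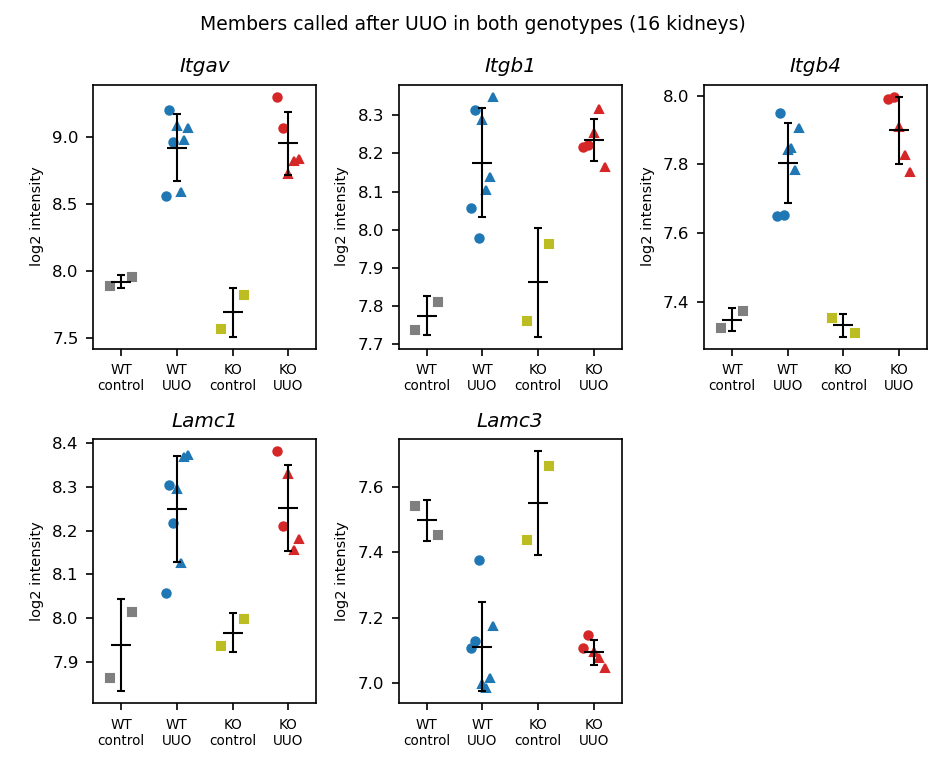
Log2 intensity of the 5 members called after UUO in both genotypes, in each of the 16 kidneys; squares are controls, circles UUO kidneys of set 1 and triangles UUO kidneys of set 2, and the lines are the group mean and SD. In every panel the obstructed kidneys of a genotype lie wholly above its controls, or for Lamc3 wholly below.

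Lamc1 and Lamc3, gamma chains of laminin, were called in both genotypes, in opposite directions. Lamc1, the gamma chain of most laminins, was at 7.86 and 8.01 in WT controls and from 8.06 to 8.37 (median 8.30) after UUO. The KO kidneys had 7.94 and 8.0 in controls and 8.38, 8.21, 8.33, 8.15 and 8.18 after UUO. Its rise was 0.31 in WT (SE 0.08, adjusted p = 0.0186) and 0.28 in KO kidneys (SE 0.09, adjusted p = 0.0261). The adjusted p of Lamc1 was 0.252 and 0.0629 in WT kidneys without control 3811 or 3812, 0.191 and 0.0898 in KO kidneys without 3813 or 3814, and 0.0507 and 0.0533 without KO replicate 3821 or 3897.

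Lamb3, a beta chain of epithelial laminin, was at 7.03 and 7.34 in WT controls and from 6.97 to 7.25 after UUO, overlapping. The difference was -0.04 in WT (SE 0.08, adjusted p = 0.825) and -0.10 in KO kidneys (adjusted p = 0.514), with limma.

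Lamc3, a gamma chain of narrower distribution, was at 7.54 and 7.45 in WT controls and from 6.98 to 7.38 (median 7.11) after UUO. In KO kidneys it was at 7.44 and 7.66 in controls and at 7.11, 7.15, 7.10, 7.08 and 7.04 after UUO. Obstructed kidneys lay below controls in both, with WT replicate 3820 nearest to them. Lamc3 fell by 0.39 in WT (SE 0.08, adjusted p = 0.00626) and by 0.46 in KO kidneys (SE 0.09, adjusted p = 0.00153), with limma. The adjusted p was 0.102 and 0.0505 in WT kidneys without control 3811 or 3812 and 0.0519 in KO kidneys without 3814.

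Among the alpha and beta laminins, Lama2 and Lamb2 were lower after UUO. Lamb2, the beta chain of the mature glomerular basement membrane, was at 8.20 and 8.46 in WT controls and from 7.87 to 8.21 (median 7.97) after UUO, WT replicate 3819 reaching the lower control. In KO kidneys it was at 8.18 and 8.28 in controls and at 7.99, 7.84, 8.01, 7.98 and 8.15 after UUO, with no overlap. The difference was -0.33 in WT (SE 0.09, adjusted p = 0.0269) and -0.24 in KO kidneys (SE 0.10, adjusted p = 0.104), and in WT kidneys -0.19 with an adjusted p of 0.417 without control 3812. Lama2, the alpha chain known from muscle and from the glomerular mesangium, was at 7.78 and 7.85 in WT controls and from 7.26 to 7.67 (median 7.51) after UUO, with no overlap. In KO kidneys Lama2 was at 7.50 and 7.74 in controls and at 7.54, 7.70, 7.42, 7.53 and 7.55 after UUO, with overlap. The difference was -0.33 in WT (SE 0.10, adjusted p = 0.0326) and -0.07 in KO kidneys (SE 0.10, adjusted p = 0.726). The WT adjusted p of Lama2 was 0.133 and 0.253 without control 3811 or 3812, and 0.053 and 0.0506 without WT replicate 3895 or 3894. Col4a3 and Col4a4, collagen chains of the glomerular basement membrane, fell in both genotypes, Col4a3 by 0.81 in WT and 1.08 in KO kidneys and Col4a4 by 0.77 and 1.19. Podxl, a surface protein of podocytes and endothelium, was called in neither, with differences of -0.15 (adjusted p = 0.343) and 0.05 (adjusted p = 0.811). The part of glomerular cells in the values of Lamb2, Lama2 and Itga3 was not tested.

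Lama1 and Lama4, alpha chains of epithelial and of vascular basement membranes, and Lamb1, the widespread beta chain, were not called. Lama1 had differences of -0.10 and -0.07 in WT and KO kidneys, Lama4 of -0.02 and 0.05, and Lamb1, listed under its older symbol Lamb1-1, of 0.06 and 0.03. Their SEs ran from 0.06 to 0.11.

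The integrins of blood cells and platelets were dim, and none of them was called higher. Itgam, Itgax and Itgad, alpha chains of myeloid cells, and Itgb2l lay below the median log2 intensity of the table, 7.05, on every array, as did Itga2, Itga4, Itga9 and Itga11. Itgb2, the beta chain of the myeloid integrins, was at 6.96 and 7.03 in WT controls and from 6.94 to 7.14 after UUO, and at 6.89 and 6.99 in KO controls and from 6.93 to 7.07 after UUO. Its differences were 0.02 in WT (SE 0.06, adjusted p = 0.873) and 0.07 in KO kidneys (SE 0.06, adjusted p = 0.53). Of 21 measured markers of leukocytes, macrophages, neutrophils, T cells and B cells, 3 were called higher and 1 lower in WT kidneys, beside 6.97% and 8.22% of all genes, and 9 higher and 1 lower in KO kidneys, beside 10.6% and 11.2%. The lower one was Csf1r, a receptor of macrophages, with a difference of -0.41 in WT and -0.36 in KO kidneys. The summed intensity of the 4 neutrophil markers was 767 to 881 in WT controls and 843 to 2263 after UUO, and 514 to 697 and 1360 to 2781 in KO kidneys, and that of the 6 macrophage and monocyte markers 2829 to 3065, 2980 to 4096, 2394 to 2586 and 3219 to 4247 in the same order. Of the neutrophil markers in WT kidneys, S100a8 rose by 1.54 (adjusted p = 0.0207), with groups that overlapped, and S100a9 (1.20, adjusted p = 0.0569), Mmp9 (0.12, adjusted p = 0.213) and Csf3r (0.03, adjusted p = 0.682) were not called. In KO kidneys S100a8, S100a9 and Mmp9 rose. Itgam had a difference of 0.02 (SE 0.05) in WT kidneys. The part of these cells in the values was not tested. The lowest intensity of the table was 95.5, and at values near it a change of the transcript is compressed.

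Itga2b and Itgae fell by the test in KO kidneys, by small amounts at the dim end. Itga2b, the platelet alpha chain that with Itgb3 binds fibrinogen, was at 7.05 and 7.11 in WT controls and from 6.96 to 7.02 after UUO. Its KO values were 7.13 and 7.20 in controls and 6.99, 6.99, 6.90, 6.95 and 6.93 after UUO. Neither pair of groups overlapped, and the difference was -0.09 in WT (SE 0.03, adjusted p = 0.0881) and -0.22 in KO kidneys (SE 0.04, adjusted p = 0.000442). Of 3 measured platelet markers Pf4 had differences of 0.56 and 0.92, Ppbp of 0.26 and 0.20 and Gp9 of 0.05 and 0.01 in WT and KO kidneys, and their summed intensity was 365 to 371 and 403 to 520 in WT and 381 to 405 and 485 to 586 in KO control and UUO kidneys. Pf4 was called in both genotypes, Ppbp in WT kidneys alone (adjusted p = 0.0436, and 0.122 in KO kidneys) and Gp9 in neither (adjusted p = 0.656 and 0.95), all from limma. The part of platelets in the values of Itga2b was not tested. Itgae, which with Itgb7 binds E-cadherin on lymphocytes in epithelia, was at 7.06 and 7.07 in WT controls and from 6.92 to 7.06 (median 6.98) after UUO, and at 7.11 and 7.11 in KO controls and 6.95, 6.93, 6.92, 7.0 and 6.98 after UUO. Its difference was -0.07 in WT (SE 0.04, adjusted p = 0.224) and -0.15 in KO kidneys (SE 0.04, adjusted p = 0.00986), the latter with an adjusted p of 0.0739 and 0.0721 without control 3813 or 3814.

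**Figure D3:**
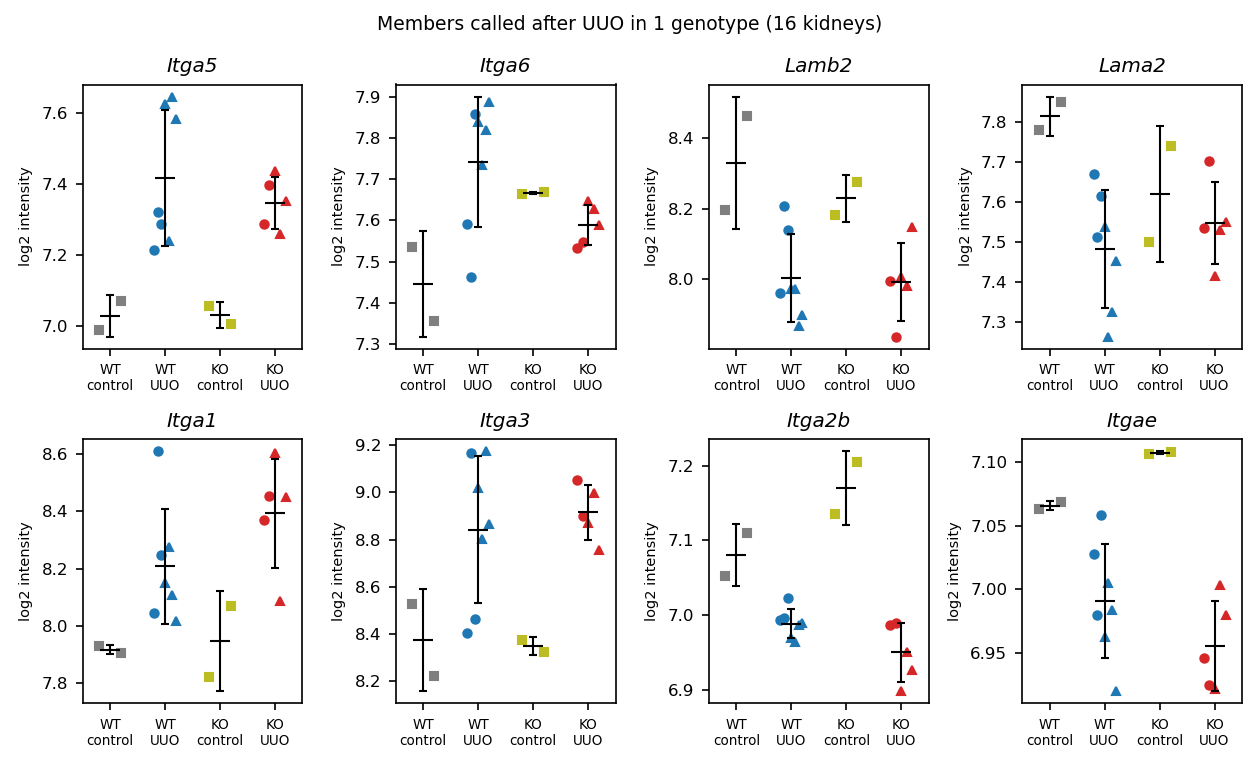
Log2 intensity of the 8 members called after UUO in 1 genotype, in each of the 16 kidneys; squares are controls, circles UUO kidneys of set 1, triangles UUO kidneys of set 2, and lines the group mean and SD. The upper row was called in WT kidneys, where Itga6 and Lamb2 overlap with the controls, and the lower row in KO kidneys, where no member overlaps.

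The 20 members called in neither response had log2 differences from -0.16 (Itgb5) to 0.25 (Itgb6) in WT and from -0.17 (Itgbl1) to 0.17 (Itgb6) in KO kidneys, with 95% confidence intervals within -0.37 and 0.53. They include Itga4, Itga9 and Itgb7 of leukocytes and other cells, Itga7, a laminin receptor of muscle, Itga2 and Itga11, collagen receptors, and Itgb8, which with Itgav binds latent TGF-beta. Counted by separation alone, 12 members had WT groups that did not overlap, beside 21.4% of all genes, and 14 had KO groups that did not overlap, beside 35% of all genes. Exact two-sided permutation tests could reach no less than 0.0278 in WT kidneys (36 splits of 9 arrays) and 0.0476 in KO kidneys (21 splits of 7 arrays). Among the members called in both genotypes Itgav, Itgb1, Itgb4, Lamc1 and Lamc3 each had the smallest exact p in both. The WT kidney lowest in a called riser was replicate 3818 for 4 of 6 genes and replicates 3819 and 3820 for 1 each.

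Brightness near background compresses differences, and for dim members the size depended on it. With the lowest intensity of the table subtracted and an offset of 16 added before quantile normalization, the WT difference became 0.78 for Itgb4, 0.82 for Itga5, 0.50 for Itga6, -0.80 for Lamc3 and -0.56 for Lama2, and the KO difference 0.96 for Itgb4, -0.91 for Lamc3, -0.55 for Itga2b and -0.39 for Itgae, each over 1.5 times the value without subtraction. The sizes depend on that offset too. Itgav, a brighter gene, moved to 1.31 and 1.70.

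The surroundings of the integrins were assessed with 3 lists, of adaptors and signalling proteins of integrin adhesions, of integrin ligands outside the laminins, and of other basement membrane components and laminin receptors. Of 72 measured genes 25 were called higher and 4 lower in WT kidneys and 34 higher and 4 lower in KO kidneys, with a median log2 difference of 0.20 and 0.28. Over all genes the shares called higher and lower were 6.97% and 8.22% in WT and 10.6% and 11.2% in KO kidneys, which are also the background of each list. Of the 29 adaptors 11 rose and 0 fell in WT kidneys and 15 rose and 1 fell in KO kidneys. Of the 22 ligands 8 rose and 1 fell in WT kidneys and 11 rose and 0 fell in KO kidneys. Of the 21 basement membrane genes 6 rose and 3 fell in WT kidneys and 8 rose and 3 fell in KO kidneys.

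The largest rises in these lists were those of Fgg and Fga, chains of fibrinogen, the ligand of the Itga2b and Itgav integrins, and of Actn1, the actin crosslinker of adhesions. Fgg rose by 5.03 (SE 0.33, adjusted p = 8.15e-07) in WT and 5.44 (SE 0.35, adjusted p = 4.17e-07) in KO kidneys, Fga by 4.02 and 4.22, and Actn1 by 1.95 (SE 0.30, adjusted p = 0.000783) and 2.40 (SE 0.31, adjusted p = 9.19e-05), all from limma. Fgb, the other fibrinogen chain of the list, was not called, with differences of 0.07 (adjusted p = 0.577) and -0.02 (adjusted p = 0.917) at a mean log2 intensity of 6.80, below the median of the table. The largest falls were those of Col4a3 and Col4a4, given beside Lamb2. The next fall was that of Icam2, an endothelial ligand of leukocyte integrins, by 0.33 in WT kidneys, and that of Parva, an adaptor that binds integrin-linked kinase, by 0.29 in KO kidneys. Chosen after their values were seen, the widespread chains Col4a1 (1.12 and 1.46) and Col4a2 (0.92 and 1.15), the kinase Ilk (0.42 and 0.60) and Cd151, a membrane partner of the laminin-binding integrins (0.97 and 1.17), were called higher in WT and KO kidneys.

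**Figure D4:**
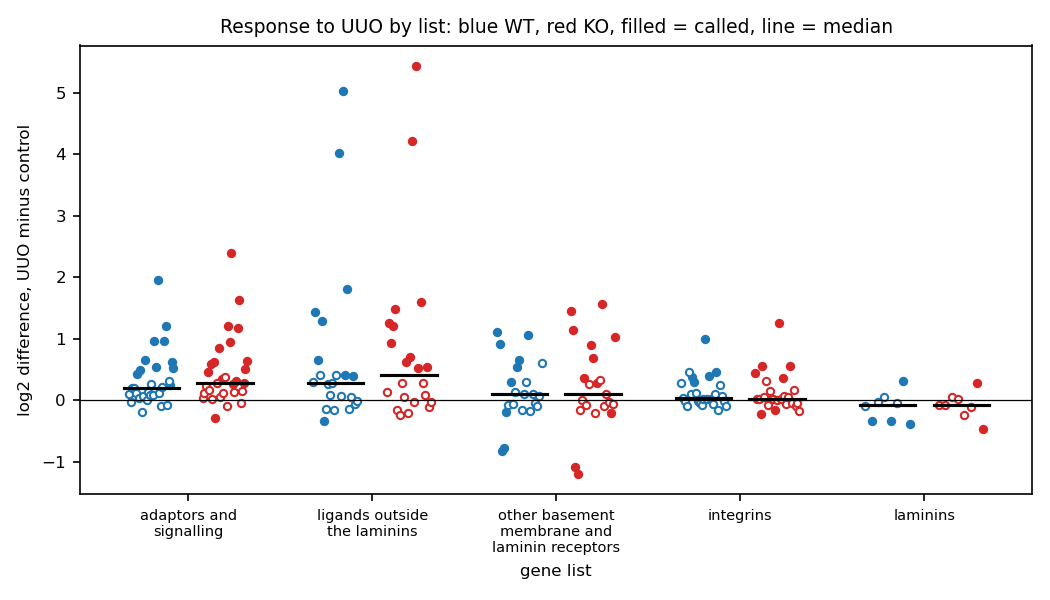
Log2 difference between UUO and control kidneys for each measured gene of the 3 lists and of the integrins and laminins, WT in blue and KO in red, filled where called, with a line at the median of each list. The medians of the integrins and laminins lie near 0, and those of the adaptors and ligands between 0.21 and 0.41.

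Whether the loss of IL-33 changed these genes was asked in 3 ways. After UUO, no member was called between KO and WT kidneys at the threshold of the study (a fold change above 1.3, an adjusted p under 0.25 and an unadjusted p under 0.05), beside 0.011% of all genes. The study applied that threshold to probes and to fewer WT kidneys. Its own count, which was larger, is therefore not of the same units or of the same number of kidneys. At an unadjusted p under 0.05 from limma there were 2 of 33 members (6.06%), Itgb5 and Itga6, beside 10.3% of all genes. No member separated the 5 KO from the 7 WT kidneys without overlap, beside 0.756% of all genes. The differences ran from -0.15 (Itga6) to 0.21 (Itgb5), 29 of the 33 within 0.1, and the 95% confidence intervals of all members lay between -0.30 and 0.41. For Itgav, the strongest riser, the difference was 0.03 (SE 0.13, 95% confidence interval -0.25 to 0.31), and it turned between the sets, 0.28 in set 1 and -0.13 in set 2. The sign differed between the sets for 21 of the 33 members. With the set as a block, 0 members were called.

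Itgb5, a beta partner of Itgav that binds vitronectin, had the largest difference between genotypes. It was at 9.79, 10.23, 9.81, 9.74 and 9.71 in KO kidneys and from 9.56 to 9.72 with a median of 9.66 in WT kidneys after UUO. The groups met at their edges, and KO replicate 3822 stood above the rest. The difference was 0.21 (SE 0.08, 95% confidence interval 0.04 to 0.38, unadjusted p = 0.0174, adjusted p = 0.382 from limma; exact permutation p = 0.00253, the smallest possible being 0.00126 over 792 splits). It was 0.42 in set 1 and 0.07 in set 2, 0.12 without KO replicate 3822, 0.21 in a fit that blocked on the set, where its adjusted p was 0.354, and 0.19 without WT replicates 3818 and 3820. In the response to UUO Itgb5 was at 9.76 and 9.85 in WT controls and 9.85 and 9.94 in KO controls, and its differences of -0.16 (adjusted p = 0.375) and -0.04 (adjusted p = 0.879) were not called.

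Itga6 lay the other way, at 7.53, 7.55, 7.65, 7.63 and 7.59 in KO against 7.46 to 7.89 in WT kidneys after UUO, with overlap. Its difference was -0.15 (SE 0.07, unadjusted p = 0.0458, adjusted p = 0.472 from limma; exact permutation p = 0.0669), and it was -0.10 in set 1, -0.20 in set 2, -0.16 in the fit that blocked on the set, where its adjusted p was 0.357, and -0.16 without WT replicates 3818 and 3820. Itga1 and Itgb6 had differences of 0.19 (SE 0.11, unadjusted p = 0.102) and 0.17 (SE 0.10, unadjusted p = 0.127), again from limma. In set 1 and set 2 they were 0.11 and 0.24 for Itga1 and 0.42 and -0.02 for Itgb6.

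The difference between the genotypes in the response to UUO itself was called for no member and for 0% of all genes with limma. At an unadjusted p under 0.05 there were 2 of 33 members, Itga6 and Itga2b, beside 4.74% of all genes. That of Itga6 was -0.37 (SE 0.13, unadjusted p = 0.0129, adjusted p = 0.973), the KO response minus the WT response, and that of Itga2b -0.13 (SE 0.05, unadjusted p = 0.0213, adjusted p = 0.973). So none of the 8 members called in 1 genotype alone passed the test of a difference between genotypes. Over all members this difference ran from -0.37 (Itga6) to 0.26 (Lama2), and it was 0.26 for Itgav (SE 0.24). Both genotypes' control kidneys enter it, and 2 arrays a group leave wide intervals.

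In control kidneys no member was called between KO and WT with limma, as was no gene of the table, 0%. At an unadjusted p under 0.05 there were 0 members, beside 3.66% of all genes. The differences ran from -0.23 for Itgav (SE 0.21) to 0.24 for Itgb6 (SE 0.17), so the control values of Itgav, 7.57 and 7.82 in KO against 7.89 and 7.96 in WT kidneys, lay apart by about the SE of that difference.

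**Figure D5:**
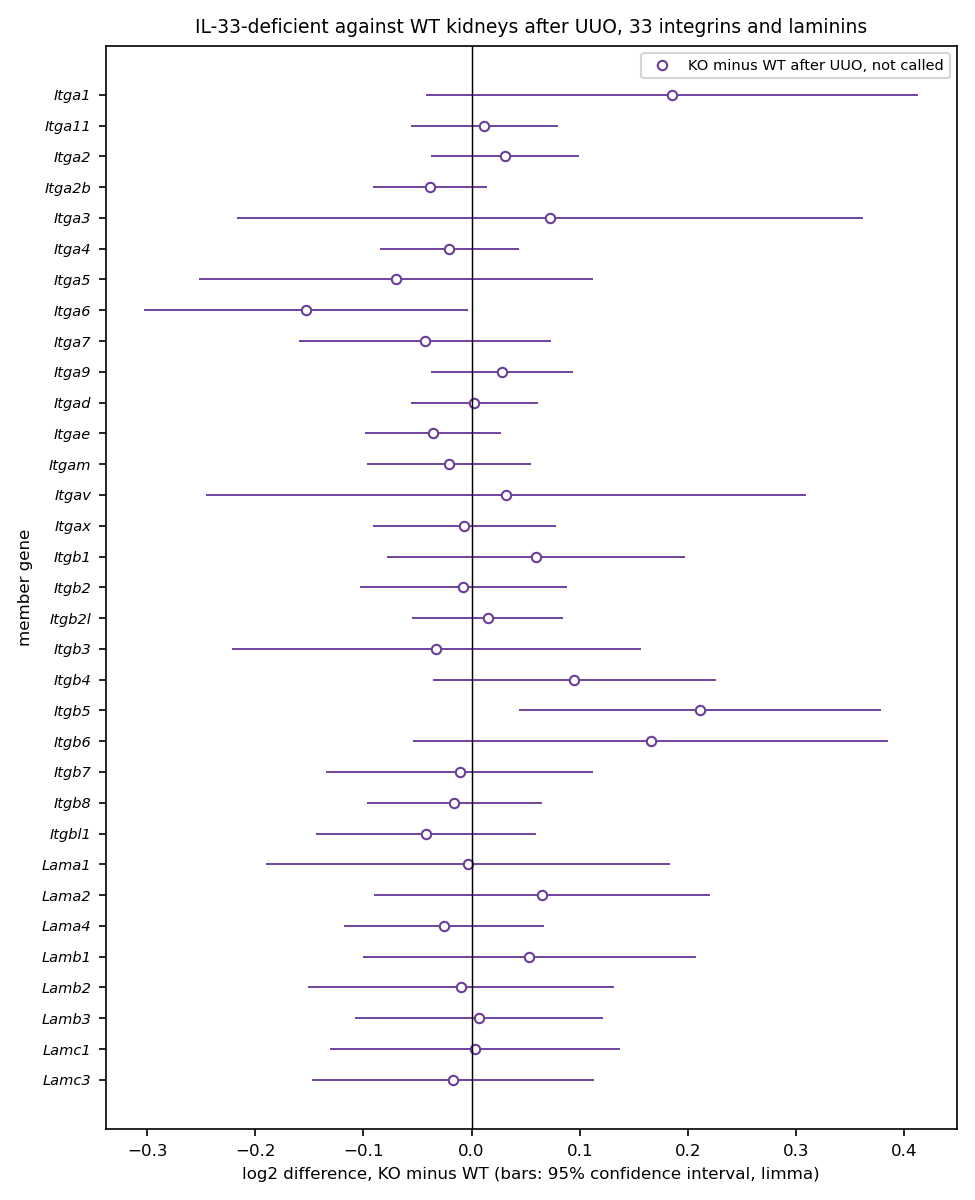
Log2 difference between the 5 KO and the 7 WT kidneys after UUO for each of the 33 members, with 95% confidence intervals from limma; open points were not called. Itgb5, at 0.21, and Itga6, at -0.15, are the members whose interval leaves out 0.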

How the data were processed

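RNA of mouse kidneys was measured on 16 Illumina arrays, each counted here as 1 kidney. The authors deposited linear intensities, 1 per gene for 18132 genes; per the submitters' processing notes BeadStudio 2 was used, and per the study's methods the arrays were imported with beadarray. Background correction, normalization, the joining of probes and detection p-values are not given in the sources used here, so dim genes were kept. An intensity at background is not a zero, which compresses the differences of dim genes. All columns were used.

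Here the intensities were quantile-normalized, taken to log2 and fitted with limma 3.58.1 under R 4.3.3 (lmFit, then eBayes), and p-values were adjusted over all genes by Benjamini-Hochberg: 1 mean per group over 16 arrays for the responses to UUO, their difference and the controls (adjusted p under 0.05), and the 12 UUO arrays for KO against WT at the threshold of the study's methods. Exact permutation tests were two-sided. Python 3.11.15 and matplotlib 3.10.9 drew the plots. The number of arrays limits the precision.

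Members, gene lists and tests were chosen with earlier results of these data known. Members called in any comparison, or not overlapping between genotypes after UUO, were described in full, others by range, together with Il33 and the 3 largest called rises and falls of the pathway lists; further genes were named after their values were seen. Symbols were matched to RefSeq (GRCm38.p6), 32 directly and 1 by synonym; 1 member of the 34 and 1 marker are not reported here.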

Additional observations from a re-analysis of the deposited data

How the results depend on the processing

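No member changed sign under any alternative in a comparison that called it or gave it an unadjusted p under 0.05. The count of members called in WT kidneys, 9, was lower with either WT control left out and 4 with the WT groups fitted alone. It was 0 with the UUO kidneys of set 1 alone, where 188 genes in all were called at an adjusted p under 0.05. In that fit 9 members had an unadjusted p under 0.05 from limma. The number of all genes at that unadjusted threshold is not given, so the 9 cannot be compared with the 188. The count in KO kidneys, 9, was 4 to 10 with 1 array left out and 4 with set 1 alone. Both counts were 8 to 11 with no further normalization, median centring, background subtraction, array weights, a prior variance that follows intensity, the brighter genes alone, set 2 alone, or, added after the data were seen, without WT replicates 3818 and 3820. For KO against WT after UUO, the difference between genotypes in the response and the control kidneys, 0 members were called under every alternative run. The cause of the lower counts without a control or with set 1 alone was not tested; a lone control is assumed to vary like the other groups. No paired analysis was possible because no replicate number is shared between groups; the set, shared by the UUO kidneys of both genotypes, was fitted as a block for KO against WT after UUO, with 0 members called. A search for a UUO kidney far from the others of its genotype covered the 13 members called in either response, 26 searches, and found 0. Members called in neither, such as Itgb5 with its high KO replicate 3822, were not searched.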
